A study of Rattus norvegicus with 6 samples.

Results

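The genes described here are 10 antimicrobial genes other than defensins, Reg3a, Reg3b, Reg3g, Lyz2, Pla2g2a, Dmbt1, Mmp7, Ang, Nos2 and Lcn2, among the 28282 gene symbols of a rat ileum single-nucleus dataset. They were chosen by name, and their UMIs (unique molecular identifiers, 1 per captured transcript) were summed per library over all nuclei, over epithelial nuclei and over classes of nuclei named from markers that include none of the 10. Levels are given as CPM, the UMIs of a gene per 1000000 UMIs of the same library and class. Where 3 values are given for CON and 3 for SAP, they are those of replicates 1, 2 and 3 in that order.

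The ileal epithelium keeps bacteria at a distance with proteins that it secretes onto its surface. Reg3b, also called pancreatitis-associated protein, and Reg3g are small C-type lectins that bind bacterial cell walls, and enterocytes and Paneth cells make them in answer to microbial and interleukin-22 signals. Paneth cells sit at the crypt base and release granules that hold lysozyme, which cuts peptidoglycan, the phospholipase Pla2g2a, which cuts bacterial membrane lipids, and defensins, and the protease Mmp7 is known in mouse Paneth cells for cutting defensin precursors to their active form. Dmbt1 is a mucosal scavenger receptor glycoprotein that binds bacteria, and Ang is a secreted ribonuclease. Nos2 is the inducible nitric oxide synthase, an enzyme kept inside the cell, and Lcn2 is a secreted protein that withholds iron by binding bacterial siderophores.

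The libraries came from the ileum of wild-type male Sprague-Dawley rats, 6 weeks old at the start and kept for 7 days before surgery. All rats were anaesthetized with pentobarbital, and severe acute pancreatitis (SAP) was induced in 3 of them by retrograde infusion of 3% sodium taurocholate into the pancreatic duct. The dose was 0.1 mL for each 100 g of body weight, and the duct was clamped for 5 min. The 3 control rats (CON) had a sham laparotomy with no infusion, and tissue was taken at 24 h in both groups. Each rat gave 1 library, the labels place all 6 in 1 batch, and a chemical injury of the pancreas at a single time is the model that these comparisons describe.

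The upstream sequences of the Reg3 genes are shown because Reg3b and Reg3g had nearly the same profile over the classes of nuclei while Reg3a, their close relative, was almost unread. They are the 250 bases before each start on the RefSeq assembly GRCr8, printed 5′ to 3′ on the strand of the gene. The Reg3b sequence is at chr4:112419526-112419775 on the plus strand, that of Reg3a (the second of 2 RefSeq entries) at chr4:112430174-112430423 on the plus strand, and that of Reg3g at chr4:112484739-112484988 on the minus strand. Capitals mark matches to TTCNNNGAA, a palindrome that STAT factors are known to bind, and to TATAAA, the TATA box, searched on both strands.
Reg3b: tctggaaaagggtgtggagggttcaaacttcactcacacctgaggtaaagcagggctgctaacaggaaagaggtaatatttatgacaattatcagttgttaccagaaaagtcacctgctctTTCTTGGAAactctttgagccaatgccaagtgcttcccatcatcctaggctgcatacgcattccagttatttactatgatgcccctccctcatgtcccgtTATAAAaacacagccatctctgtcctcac
Reg3a: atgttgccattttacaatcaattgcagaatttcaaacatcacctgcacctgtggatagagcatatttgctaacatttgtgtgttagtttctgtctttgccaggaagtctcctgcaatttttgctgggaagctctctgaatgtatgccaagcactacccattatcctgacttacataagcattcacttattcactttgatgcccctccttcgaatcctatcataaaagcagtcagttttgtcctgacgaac
Reg3g: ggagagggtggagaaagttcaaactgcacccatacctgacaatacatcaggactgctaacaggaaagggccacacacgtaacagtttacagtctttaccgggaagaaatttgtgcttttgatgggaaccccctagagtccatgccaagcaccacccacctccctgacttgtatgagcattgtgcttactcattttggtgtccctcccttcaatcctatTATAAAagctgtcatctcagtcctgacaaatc
The Reg3b sequence held the palindrome as TTCTTGGAA starting 129 bases before the start, and no match was in those of Reg3a and Reg3g. Of 33469 RefSeq upstream windows of this length, 7.67% held it. TATAAA began 29 bases before the start of Reg3b and 32 before that of Reg3g, was not matched in the Reg3a window, and was in 12.9% of all windows. The aligned sequences of Reg3b and Reg3g were identical at 171 of 240 positions (71.2%), those of Reg3a and Reg3b at 73.7% and those of Reg3a and Reg3g at 70.2%. RefSeq entries were found for 8 of the 10 genes, and beside the Reg3 genes only Mmp7 held either motif, TATAAA starting 140 and 43 bases before its start. A match describes the letters and is no measurement of binding.

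Of 90461 barcodes, 40970 nuclei passed quality control, 3189 to 9246 per library, with 5549260 to 28771508 UMIs in all and medians of 1516 to 1889.5 per nucleus, and 31407 (76.7%) were epithelial. Classes held their defining markers, with the defensin Defa24 at 119890 CPM in Paneth-like nuclei and 7269 CPM elsewhere, Apoa4 at 544 and 33.2 CPM inside and outside Enterocyte-like nuclei, and S100a8 at 12302 and 11.6 CPM inside and outside Neutrophil-like nuclei. These genes were among the markers that named the classes, so their levels are no separate check of the names. Several libraries stood apart. The median share of mitochondrial UMIs per passing nucleus was 0.700, 0.125 and 0.218% in CON rats and 1.84, 1.29 and 0.387% in SAP rats, higher in SAP replicates 1 and 2 than in every CON library. A limit of 1% left 384 of 3189 nuclei in SAP replicate 1 and 1908 of 5968 in SAP replicate 2. With these nuclei alone none of the 9 genes tested passed over all or epithelial nuclei (edgeR). None passed without that limit either, so this cannot tell whether the mitochondrial share matters. The tables of CON replicate 2 and SAP replicate 1 list barcodes of fewer than 1000 UMIs, down to 545 and 502, and those of the other libraries do not. Paneth-like nuclei numbered 454 in CON replicate 1 and 13 to 60 in each other library. RNA from Paneth cells was also found in nuclei of every other class, and the summed level of the 7 Paneth cell markers over all nuclei was 102360, 5256 and 7736 CPM in CON rats and 70127, 4900 and 4725 CPM in SAP rats. The number 1 library of each group was far above the others. Barcodes under 1200 UMIs, which failed quality control, carried the abundant genes at levels like those of passing nuclei, for example Pla2g2a at 7329, 1065 and 613 CPM in CON rats and 2729.8, 200.4 and 348 CPM in SAP rats.

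Over all passing nuclei the 10 genes covered a wide range of levels, and the rats of a group differed from each other as much as the groups did for most of them. Reg3g, Reg3b and Pla2g2a led with 11866 ± 7903 CPM, 7487 ± 3689 CPM and 2441 ± 3832 CPM (SD, n = 6), and Reg3a was at 0.262 ± 0.0909 CPM, with 26 UMIs in all. Of the 9 genes with enough UMIs to be tested, none passed the threshold (edgeR's quasi-likelihood test with Benjamini-Hochberg adjustment over 19187 genes, adjusted p under 0.05 and a log2 fold change of at least 0.5 in size), where 0% of all genes did. At an unadjusted p under 0.05 there was 1, Lcn2, against 8.43% of all genes, and DESeq2 called none of the 9 and 193 of 28135 genes (0.686%). Lcn2 was also the only gene of the 10 with every SAP library above every CON library, which held for 4.53% of all genes, and none lay with every SAP library below, against 4.84%. Lcn2 passed the filter on low counts through the SAP libraries, so its unadjusted p and its order carry no support of their own. The median log2 fold change was −0.41 over the 9 and 0.02 over all genes tested. A summed level cannot tell fewer cells of a type from less RNA per cell.

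**Figure D1:**
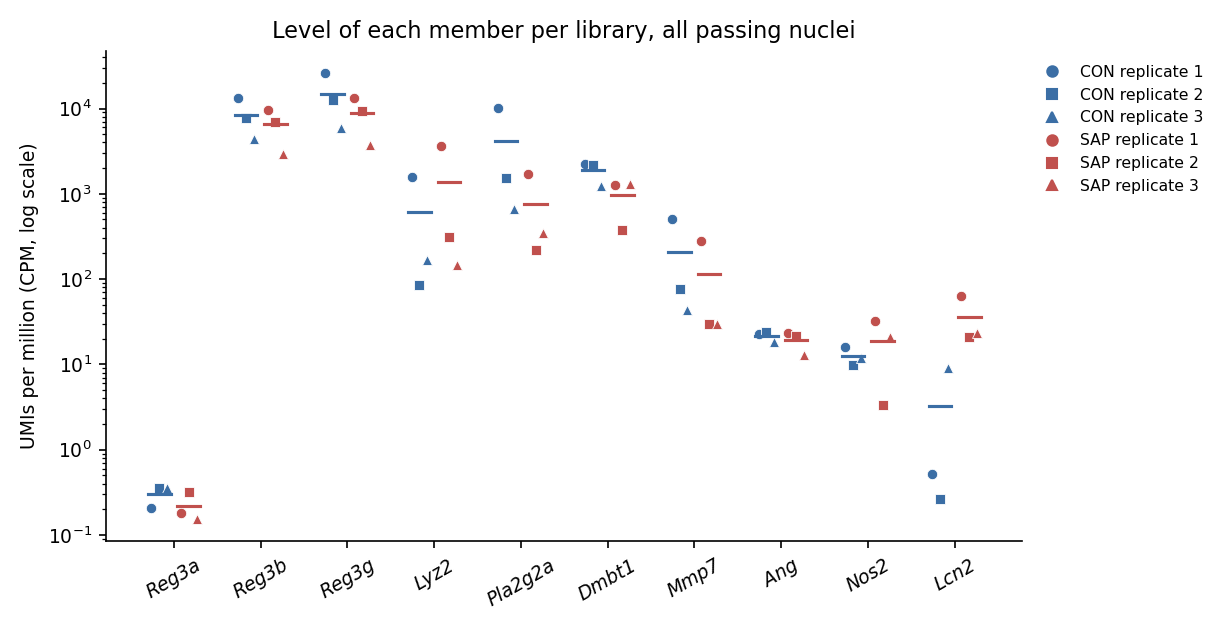
Level of each gene over all passing nuclei, in CPM on a log scale, with 1 point per library (CON blue, SAP red, the shape giving the replicate number) and a bar at each group's mean. The groups overlap for each gene but Lcn2, whose SAP libraries lie at 21 to 62.9 CPM and whose CON libraries lie at 0.263 to 9.07 CPM.

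Over the 31407 epithelial nuclei, again none of the 9 genes tested passed (edgeR), with 0% of 16912 genes called, 1 of the 9 at an unadjusted p under 0.05 against 11.2%, and DESeq2 calling 1, Lcn2 (0.959% of all genes by DESeq2). Lcn2 was again the only gene without overlap, higher in SAP, as were 5.34% of all genes, while 5.13% were lower in SAP without overlap and none of the 9. Here too Lcn2 passed the filter on low counts for edgeR through the SAP libraries, so this order carries no support of its own. In the 18 classes or clusters where each library gave 10 nuclei or more, 120 tests of the 10 genes could be made, and none passed (edgeR), against 0.0141% of all tests over genes and classes, while 19 had an unadjusted p under 0.05 (7.93% of all tests). The SAP libraries lay above all CON libraries in 8 of the 120, against 4.96% of all tests, and below them in 9, against 7.17%. Lcn2 alone gave 7 of these 8, and 7 of the 19 at an unadjusted p under 0.05. It passed the filter on low counts in its classes through the SAP libraries, so those 7 carry no support of their own. With the replicate number as a block 2 of the tests passed, against 0.0756% of all tests over genes and classes. They were those of Mmp7 in Paneth-like nuclei and of Reg3g in Endothelial-like nuclei, which should lack Reg3 lectins. No source says that libraries of the same number belong together. The class fits share 6 rats and the RNA that is common to every class of a library, so they are not independent.

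By mean level, Reg3b and Reg3g were highest in Enterocyte-like nuclei, Lyz2, Pla2g2a and Mmp7 in Paneth-like nuclei, Dmbt1 in Stem/TA-like nuclei (stem and transit-amplifying cells of the crypt), Ang in Goblet-like nuclei, Nos2 in Neutrophil-like nuclei and Lcn2 in SMC-like nuclei (smooth muscle cells). For 9 of the 10, the difference between the highest class and the next was within the spread over the 6 libraries. The exception was Ang. That spread includes differences between libraries that both classes share. Library by library, the highest class lay above the next in 6 of 6 libraries for Reg3b, Reg3g, Lyz2 and Ang. For the other genes it did so in 2 to 4. With coarser clusters (resolution 0.4) the highest class was another for Mmp7 and Lcn2 (Neutrophil-like nuclei for Lcn2), and the means of Lyz2 in Paneth-like nuclei and of Lcn2 in SMC-like nuclei were 3048 and 111 CPM, against 4758 and 196 CPM. As a ratio to stromal nuclei, Mmp7 was highest in cluster 8. The class of the highest level did not hold most UMIs for each gene. Cluster 8 held 27.2% of Mmp7 UMIs on average over the libraries and Paneth-like nuclei 16.7%. For Pla2g2a these shares were 17.8% and 16.6%. Reg3a was highest in Enteroendocrine-like nuclei at 1.59 ± 2.49 CPM, which rests on 26 UMIs over all classes. In Paneth-like nuclei it had 0 UMIs in 611 nuclei, which allows a share of nuclei with a UMI of up to 0.491%.

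**Figure D2:**
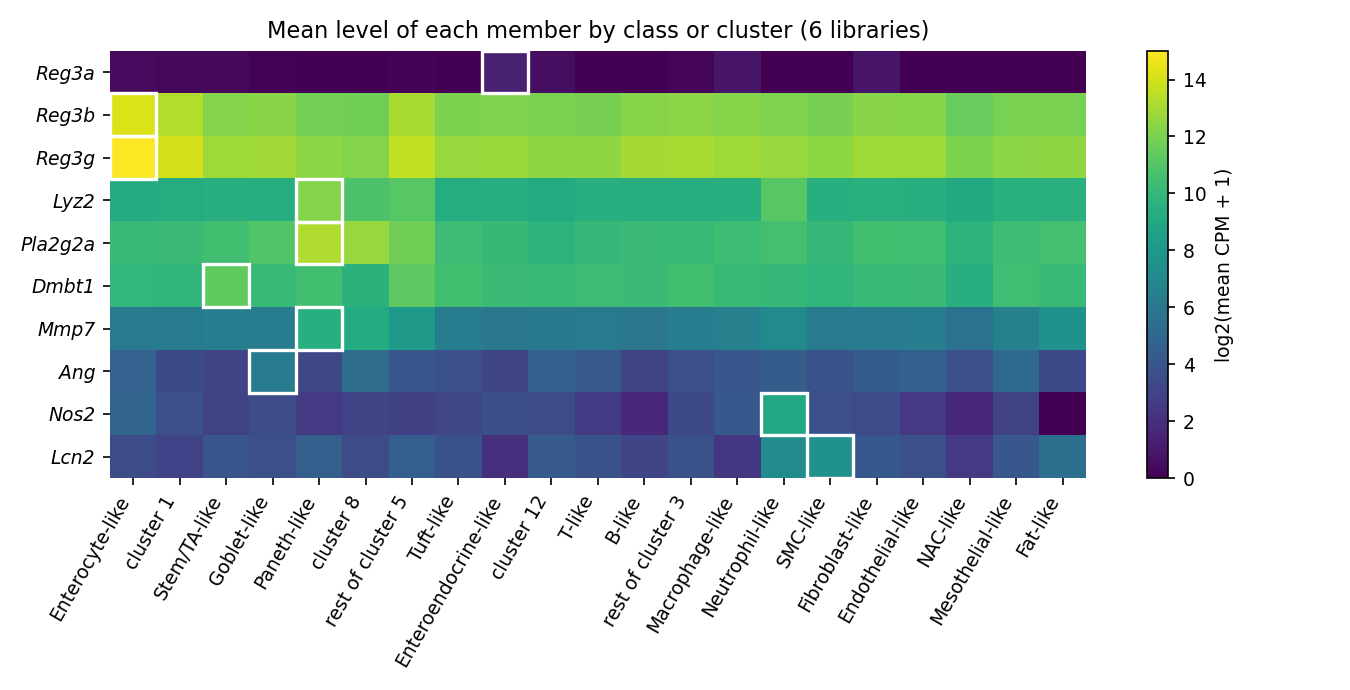
Mean level of each gene (rows) in 21 classes and unnamed clusters (columns) over 6 libraries, as the log2 of mean CPM plus 1, with a white frame at the highest class of each gene. Reg3b and Reg3g are bright in every column, while Nos2 and Lcn2 stand out in few columns.

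Reg3b and Reg3g were the most abundant of the 10 in Enterocyte-like nuclei, 5669 nuclei that held 27.3% to 52.7% of the Reg3b UMIs in 5 libraries and 13.2% in CON replicate 2. Reg3b stood at 55645, 10925 and 10274 CPM in CON rats and 22062, 9985 and 6604 CPM in SAP rats in these nuclei. Reg3g stood at 111570, 18812 and 13973 CPM in CON rats and 31171, 13763 and 8659 CPM in SAP rats. In both genes CON replicate 1 was far above the rest, SAP replicate 1 came next, and the groups overlapped. Among Enterocyte-like nuclei the levels were higher in cluster 6, led by the ileal bile acid-binding protein Fabp6, than in cluster 4, which has Apoa4 among its leading genes. Reg3b stood at 23820 ± 23681 CPM and 15329 ± 12125 CPM (SD, n = 6) in these clusters. Cluster 1, an epithelial cluster without a name that has sucrase-isomaltase (Si) and Slc2a2 among its leading genes, followed with 9974 ± 7469 CPM.

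A floor lay under these values in every class. In stromal nuclei, namely SMC-like, Fibroblast-like, Endothelial-like and NAC-like nuclei (neurons and associated cells), which should lack Reg3 lectins, Reg3b stood at 5387, 4830.4 and 3984 CPM in CON rats and 4633, 5259 and 2607 CPM in SAP rats. Of these nuclei 96.1% held a Reg3b UMI after thinning to 1200 UMIs, against 99.5% of Enterocyte-like nuclei (99% and 99.8% without thinning, with median depths of 1802 and 1921 UMIs), so the share of nuclei with a UMI does not separate the classes. The level set Enterocyte-like nuclei above stromal nuclei in 6 of 6 libraries. It did not separate every class from this floor, since Goblet-like and Stem/TA-like nuclei lay above stromal nuclei in 3 of 6 libraries each. The ratio of the level in Enterocyte-like nuclei to that in stromal nuclei of the same library was 10.3, 2.26 and 2.58 in CON rats and 4.76, 1.90 and 2.53 in SAP rats for Reg3b, above 1 in 6 of 6 libraries. In Paneth-like nuclei it was 0.397, 1.71 and 0.417 in CON rats and 0.697, 0.880 and 1.0 in SAP rats, above 1 in 2 of 6 libraries. CPM is a share of all UMIs of the class, and Defa24 alone took 119890 CPM in Paneth-like nuclei. The ratio therefore does not give the Reg3b UMIs per nucleus. Reg3b is also a pancreatic acinar protein in pancreatitis, and the summed level of the 7 pancreatic acinar markers in the tables (of 8) was 24.8, 14.3 and 15.4 CPM in CON rats and 11.9, 8.52 and 15 CPM in SAP rats over all ileal nuclei. Free RNA was not removed from the counts, and its part in the differences below was not tested.

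Neither Reg3b nor Reg3g passed between groups. The summed level of 10 enterocyte markers (of 11) was 988, 367 and 2098 CPM in CON rats and 2737, 3124 and 2331 CPM in SAP rats and did not overlap. That is an order of the libraries and not a pass, and no share over all genes stands beside it. Its part in the levels of Reg3b and Reg3g was not tested. Over all nuclei Reg3b stood at 13316, 7675 and 4440.2 CPM in CON rats and 9502, 7025 and 2962 CPM in SAP rats (log2 fold change −0.41, standard error 0.73, adjusted p = 0.918, edgeR). Reg3g stood at 26060, 12709 and 5841 CPM in CON rats and 13401, 9409 and 3777 CPM in SAP rats (log2 fold change −0.80, standard error 0.83, adjusted p = 0.855, edgeR). Without CON replicate 1 the log2 fold changes turned to 0.38 and 0.20. In Enterocyte-like nuclei they were −1.06 and −1.51 (edgeR, adjusted p = 0.783 and 0.725). Over the 18 class fits Reg3g had a negative log2 fold change in 18 of 18, from −1.51 to −0.23, and Reg3b in 15 of 18, from −1.06 to 0.08. Between CON replicate 2 and SAP replicate 1, whose tables list low barcodes, the direction in Enterocyte-like nuclei was the other way. The log2 ratios of SAP to CON were 1.01 for Reg3b and 0.73 for Reg3g there, and −1.99 and −2.49 among the other libraries.

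The paralogs kept a narrow ratio to each other. Reg3g made up 66.2, 62.3 and 56.8% in CON rats and 58.5, 57.3 and 56% in SAP rats of the UMIs of the 3 Reg3 genes over all nuclei. The share was highest in CON replicates 1 and 2, and CON replicate 3 lay among the SAP libraries (difference of means −4.51 percentage points, exact two-sided permutation test, p = 0.3). In enterocyte-like cluster 4 it was 68.9, 63.7 and 59.9% in CON rats and 58.9, 57.9 and 57.4% in SAP rats, and there every SAP library lay below every CON library (exact permutation test, p = 0.1, the smallest that 3 against 3 rats can give, adjusted p = 0.429 over 10 groups of nuclei). The same order held in stromal nuclei, at 65.2, 61.4 and 56.1% in CON rats and 56, 55 and 54.4% in SAP rats (exact permutation test, p = 0.1). There the lowest CON and the highest SAP library were nearly equal, at 56.12 and 56.0%. In every other group of nuclei compared CON and SAP overlapped. These include Enterocyte-like nuclei as a whole, enterocyte-like cluster 6, cluster 1 and Goblet-like, Stem/TA-like and Paneth-like nuclei. The summed level of the 3 genes was 39377, 20385 and 10282 CPM in CON rats and 22903, 16434 and 6739 CPM in SAP rats, with the groups overlapping. In each of the 3 pairs of libraries with the same number, Reg3b, Reg3g, their sum and the Reg3g share over all nuclei were lower in SAP. This pairing is given by no source, and no share over all genes stands beside the order. The quantities come from the same UMIs, so they do not support each other. Reads of such similar genes can be split by the counting, so the sum is the safer value.

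**Figure D3:**
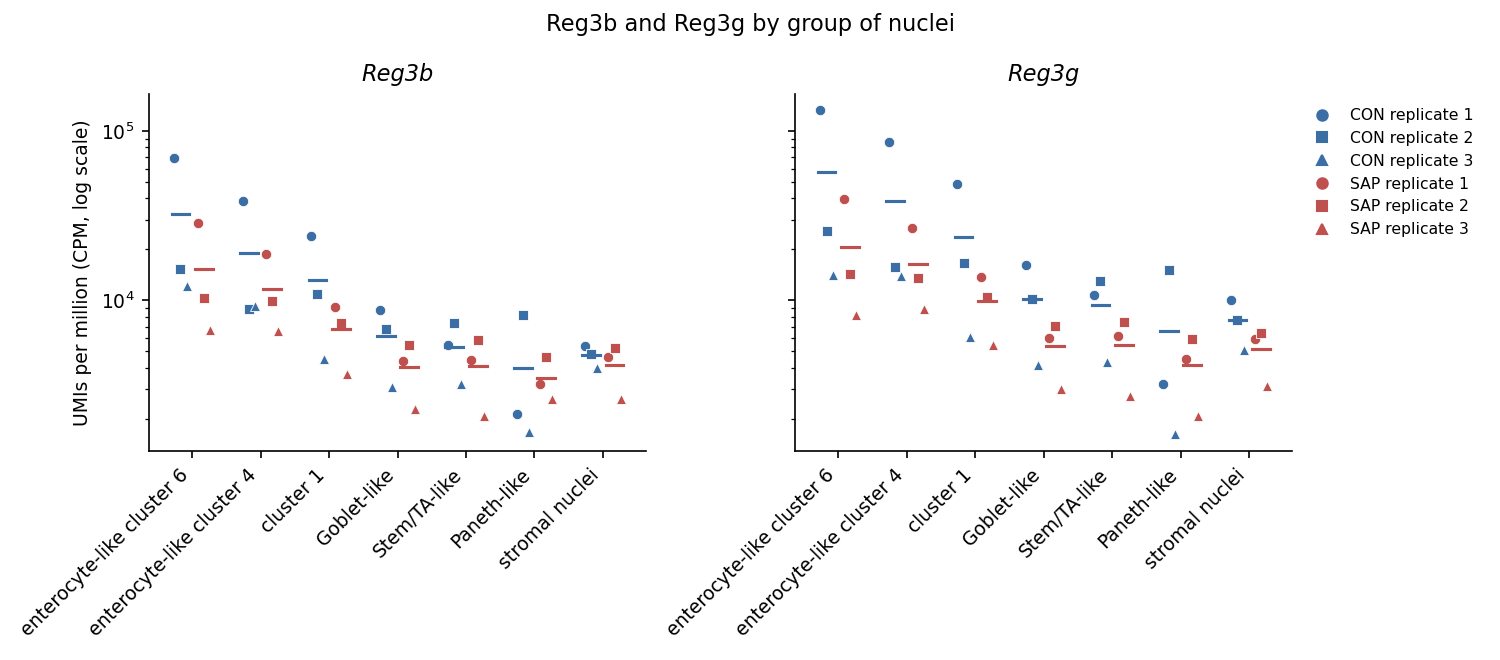
Levels of Reg3b (left) and Reg3g (right) in CPM on a log scale in 7 groups of nuclei, with 1 point per library and a bar at each group's mean. Both genes are higher in the enterocyte-like clusters than in stromal nuclei, and the CON and SAP points overlap in each group of nuclei.

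Lyz2, Pla2g2a and Mmp7 were highest in the 611 Paneth-like nuclei, and the ratio of Pla2g2a to each of the other 2 was lower in every SAP library there. Pla2g2a, the phospholipase, stood at 28520, 7940.4 and 11595 CPM in CON rats and 5313, 3365 and 1388 CPM in SAP rats in Paneth-like nuclei. Every SAP library lay below every CON library (log2 fold change −3.05, standard error 1.16, adjusted p = 0.546, edgeR), an order found in 0.611% of the genes tested in this class. Leaving out 1 library at a time gave log2 fold changes of −3.95 to −1.57, with the smallest in size without CON replicate 1. Lyz2, the lysozyme, stood at 4765, 715 and 1872 CPM in CON rats and 13788, 6253 and 1157 CPM in SAP rats, with the highest value in SAP replicate 1 and overlapping groups (log2 fold change 0.72, standard error 1.06, adjusted p = 0.995, edgeR). Lyz1 was not analysed here. Mmp7 stood at 1644, 561 and 594 CPM in CON rats and 811, 284 and 145 CPM in SAP rats, also with overlap (log2 fold change −1.89, standard error 0.83, adjusted p = 0.718, edgeR). With the replicate number as a block Mmp7 passed in this class (log2 fold change −1.80, adjusted p = 0.0374, edgeR), as did 1.83% of genes, and each SAP library was below the CON library of its number, a pairing that no source gives. Without CON replicate 1 its log2 fold change was −0.38. Paneth-like nuclei numbered 24 to 454 per CON library and 13 to 60 per SAP library, so the SAP values rest on few nuclei.

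Over all nuclei Mmp7 stood at 503, 75.9 and 43.1 CPM in CON rats and 283, 29.7 and 30.1 CPM in SAP rats, with both number 1 libraries above the rest and overlapping groups (log2 fold change −0.96, standard error 1.25, adjusted p = 0.888, edgeR). Its log2 ratio of SAP to CON was 1.89 between CON replicate 2 and SAP replicate 1, whose tables list low barcodes, and −3.15 among the other libraries. In cluster 8 it stood at 915, 859.9 and 430 CPM in CON rats and 749, 236 and 449 CPM in SAP rats, again with overlap (log2 fold change −0.64, standard error 0.55, adjusted p = 0.778, edgeR). Cluster 8 made up 3.90, 5.59 and 4.59% in CON rats and 2.48, 1.56 and 1.94% in SAP rats of the nuclei, lower in every SAP library, and held 71.1% and 42.8% of the Mmp7 UMIs of CON replicates 2 and 3.

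Per UMI of Lyz2, Pla2g2a counted 5.99, 11.1 and 6.19 in CON rats and 0.385, 0.538 and 1.20 in SAP rats in Paneth-like nuclei. Every SAP library lay below every CON library (exact two-sided permutation test, p = 0.1, the smallest possible, adjusted p = 0.147 over 25 ratios). Mmp7 per Lyz2 UMI was 0.345, 0.784 and 0.317 in CON rats and 0.0588, 0.0455 and 0.125 in SAP rats, also without overlap (exact permutation test, p = 0.1). Over all nuclei the defensin Defa24 per Lyz2 UMI was 24.7, 24.2 and 22.1 in CON rats and 5.98, 6.19 and 13.8 in SAP rats, in the same order. Pla2g2a per Mmp7 UMI, a ratio without Lyz2, was 20.2, 20.3 and 15.3 in CON rats and 6.11, 7.32 and 11.4 in SAP rats over all nuclei, and again every SAP library was below every CON library (exact permutation test, p = 0.1). That order held in 5 of 5 groups of nuclei compared. All nuclei include the other groups, and the groups share the same rats and the RNA common to every class of a library, so they are not independent. The ratio of Pla2g2a to Lyz2 was lower in every SAP library in cluster 8, in Enterocyte-like nuclei and over all nuclei as well. In stromal nuclei, at 6.15, 10.7 and 2.24 in CON rats and 0.487, 0.686 and 2.26 in SAP rats, the groups overlapped by the values of the number 3 libraries. Lyz2 is also made by neutrophils and macrophages, and the summed level of the 6 neutrophil markers over all nuclei was 72.1, 2.28 and 11.5 CPM in CON rats and 1082, 8.46 and 221 CPM in SAP rats. Neutrophil-like nuclei held 16.2% of the Lyz2 UMIs of SAP replicate 3 and at most 1.43% of those of the other libraries, and their part in the ratio was not tested.

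**Figure D4:**
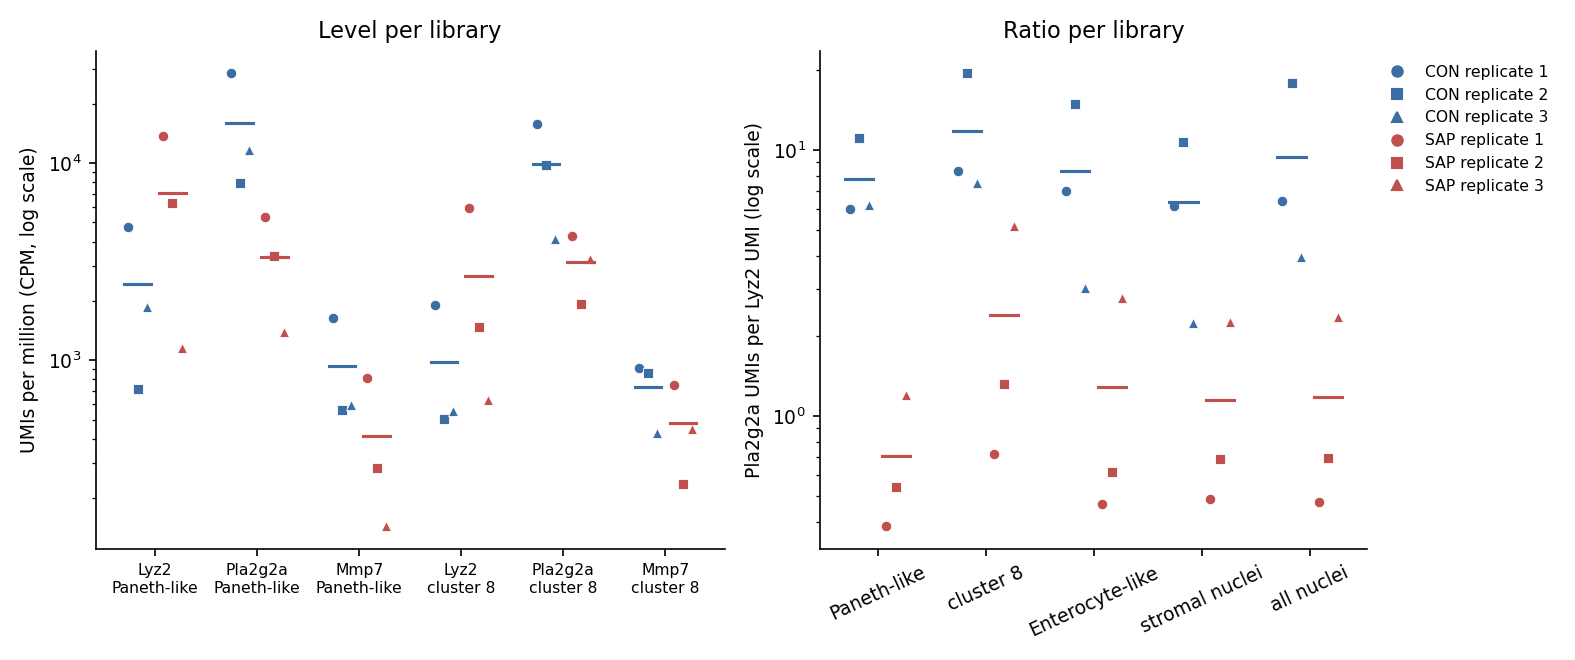
Left, levels of Lyz2, Pla2g2a and Mmp7 in Paneth-like nuclei and in cluster 8, in CPM on a log scale. Right, UMIs of Pla2g2a per UMI of Lyz2 in 5 groups of nuclei on a log scale, with 1 point per library and bars at the group means, showing SAP libraries below CON libraries in all 5 except the stromal nuclei, where the number 3 libraries lie side by side.

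Cluster 8, 1422 crypt nuclei that hold the stem cell marker Lgr5 with Habp2, a Paneth cell marker here, carried Pla2g2a and Mmp7 at levels next to those of Paneth-like nuclei. Its class score was highest for Paneth cells (0.978) and next for stem cells (0.634), too close for a name, so it is not a cluster of stem cells alone by these markers. Pla2g2a stood there at 15860, 9768 and 4144 CPM in CON rats and 4272, 1936 and 3249 CPM in SAP rats (log2 fold change −1.71, standard error 0.59, adjusted p = 0.446, edgeR). The SAP libraries were low, and SAP replicate 1 alone lay above the lowest CON library. A Pla2g2a UMI was found in 93% of cluster 8 nuclei after thinning, more than in any other class, and in 46.4% of stromal nuclei, and for Mmp7 these shares were 45.3% and 8.37%. Without thinning the shares in cluster 8 and stromal nuclei were 97.5% and 56.4% for Pla2g2a and 57.8% and 13.6% for Mmp7. Stromal nuclei, which should lack both, thus set a floor far below cluster 8 for Mmp7 and a higher one for Pla2g2a.

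Over all nuclei Pla2g2a stood at 10160, 1537 and 659 CPM in CON rats and 1728, 217 and 344 CPM in SAP rats, lower in each SAP library than in the CON library of the same number (a pairing that no source gives) but overlapping (log2 fold change −2.57, standard error 1.28, adjusted p = 0.640, edgeR). Without CON replicate 1 its log2 fold change was −0.26. The log2 fold change of Pla2g2a was negative in 18 of 18 class fits, stromal and immune classes included, from −3.17 to −1.07. Lyz2 stood at 1578, 85.9 and 166 CPM in CON rats and 3647, 313 and 146 CPM in SAP rats (log2 fold change 1.09, standard error 1.47, adjusted p = 0.892, edgeR), and its direction turned to −1.64 without SAP replicate 1. In the class fits the log2 fold change of Lyz2 was positive in 17 of 17, from 0.44 to 2.34. Between the pair of libraries with low barcodes listed, the log2 ratio of SAP to CON was 5.39 for Lyz2, and among the other 4 libraries it was −1.92, so Lyz2 had no direction that held within both kinds of table. For Pla2g2a these were 0.17 and −4.26.

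Dmbt1, the bacteria-binding scavenger glycoprotein, was highest in crypt nuclei. In Stem/TA-like nuclei it stood at 3704, 3289 and 2529.6 CPM in CON rats and 2648, 656 and 2926 CPM in SAP rats. SAP replicate 2 was the only low library there, and the groups overlapped (log2 fold change −0.63, standard error 0.49, adjusted p = 0.704, edgeR). Over all nuclei Dmbt1 stood at 2219, 2199 and 1233 CPM in CON rats and 1252, 376 and 1293 CPM in SAP rats (log2 fold change −1.05, standard error 0.54, adjusted p = 0.653, edgeR), with SAP replicate 2 far below the others and SAP replicates 1 and 3 just above CON replicate 3. The log2 fold change was negative in 18 of 18 class fits, from −1.61 to −0.08, with no overlap in 5 (7.17% of all tests over genes and classes lay below without overlap). Those 5 were Endothelial-like, Macrophage-like, Neutrophil-like and SMC-like nuclei and cluster 1, and not the Stem/TA-like nuclei where Dmbt1 was highest. The part of free RNA in these classes was not tested. Over all nuclei the sign held within both kinds of table, at −0.81 and −1.05. Over all nuclei the sum of the 6 stem cell markers was 891, 748 and 677 CPM in CON rats and 632, 244 and 639 CPM in SAP rats, without overlap. The sum of the 8 markers of transit-amplifying cells, which share the class, was 510, 533 and 387 CPM in CON rats and 238, 85.5 and 407 CPM in SAP rats, with overlap. No share over all genes stands beside these sums, and their part in the level of Dmbt1 was not tested. In SMC-like nuclei, which should lack the gene and held it at 1532, 1419 and 779 CPM in CON rats and 566, 367 and 661 CPM in SAP rats, the groups did not overlap (log2 fold change −1.17, standard error 0.39, adjusted p = 0.272, edgeR). That order was found in 9.74% of genes in this class.

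Ang, the ribonuclease, was the only gene of the 10 whose highest class stood beyond the spread of the next. It stood at 61.7, 70.0 and 47.4 CPM in CON rats and 114, 76.8 and 44.9 CPM in SAP rats in Goblet-like nuclei, above the level in cluster 8 in 6 of 6 libraries, with means of 69.2 ± 25.4 CPM and 40.1 ± 15.5 CPM (SD, n = 6). Between groups it overlapped in Goblet-like nuclei (log2 fold change 0.45, standard error 0.39, adjusted p = 0.786, edgeR) and over all nuclei (log2 fold change −0.16). In cluster 8 it stood at 52.6, 62.9 and 43.7 CPM in CON rats and 30.0, 26.7 and 24.8 CPM in SAP rats, with every SAP library below every CON library (log2 fold change −1.03, standard error 0.38, adjusted p = 0.459, edgeR), as for 5.44% of genes in this cluster. The SAP values there rest on 79 to 153 nuclei per library.

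Nos2, inducible nitric oxide synthase, was highest on average in Neutrophil-like nuclei and next in Enterocyte-like nuclei. In the latter it stood at 71.4, 46.3 and 26.2 CPM in CON rats and 7.52, 1.47 and 18.5 CPM in SAP rats, from 259, 49 and 67 UMIs in CON rats and 9, 6 and 44 UMIs in SAP rats. All 3 SAP libraries lay below the lowest CON library (log2 fold change −2.49, standard error 0.81, adjusted p = 0.577, edgeR), as for 7.57% of genes in this class. Leaving out 1 library at a time gave −3.65 to −1.75, and the 2 kinds of table gave log2 ratios of −2.47 and −2.18. The difference was larger in cluster 4, with Apoa4 among its leading genes, at 144, 61.3 and 35 CPM in CON rats and 8.77, 1.32 and 21.9 CPM in SAP rats, again with no overlap. In cluster 6 Nos2 stood at 12, 12.3 and 9.20 CPM in CON rats and 5.02, 1.90 and 10.1 CPM in SAP rats, where SAP replicate 3 overlapped CON.

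In Stem/TA-like nuclei Nos2 had the opposite order, at 2.99, 4.37 and 4.42 CPM in CON rats and 7.57, 5.22 and 13.7 CPM in SAP rats (log2 fold change 1.20, standard error 0.44, adjusted p = 0.542, edgeR), with every SAP library above every CON library, as for 5.87% of genes. These levels are low. A Nos2 UMI was found in 0.697% of Stem/TA-like nuclei after thinning (1.01% without), less than the 0.892% of stromal nuclei (2.27% without). Over stromal nuclei Nos2 stood at 13.1, 6.52 and 8.89 CPM in CON rats and 19, 2.24 and 10.1 CPM in SAP rats, with overlapping groups. The part of free RNA in the Stem/TA-like values was not tested. In Enterocyte-like nuclei the share was 2.54% (4.38% without thinning). In Neutrophil-like nuclei, a cell type known for inducible nitric oxide synthase, Nos2 stood at 0, 49 and 17.6 CPM in CON rats and 2220.3, 0 and 781 CPM in SAP rats, from 0, 1 and 1 UMIs in CON rats and 134, 0 and 133 UMIs in SAP rats in 10 to 44 nuclei per library. SAP replicates 1 and 3 were far above the rest, and SAP replicate 2 had none. The share of these nuclei with a Nos2 UMI after thinning was 0%, 9.09% and 3.12% in CON rats and 65.5%, 0% and 47.7% in SAP rats. These nuclei held 74% of the Nos2 UMIs of SAP replicate 1 and 32.8% of those of SAP replicate 3, so the sum over all nuclei joins an epithelial and a neutrophil part. That sum stood at 16.1, 9.82 and 12 CPM in CON rats and 32.6, 3.36 and 20.9 CPM in SAP rats (log2 fold change 0.52, standard error 0.73, adjusted p = 0.895, edgeR). Without SAP replicate 1 that log2 fold change was −0.39.

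Lcn2, the siderophore-binding lipocalin, had the largest log2 fold change of the 9 genes tested over all nuclei. It stood at 0.521, 0.263 and 9.07 CPM in CON rats and 62.9, 21 and 23.4 CPM in SAP rats, from 15, 3 and 179 UMIs in CON rats and 349, 325 and 455 UMIs in SAP rats. The lowest SAP library was above the highest CON library, CON replicate 3 (log2 fold change 3.74, standard error 1.13, adjusted p = 0.545, edgeR), and the other CON libraries were near 0. Lcn2 passed the filter on low counts over all nuclei through the SAP libraries, so this order carries no support of its own. DESeq2 called it over epithelial nuclei (log2 fold change 3.61, adjusted p = 0.0109) and not over all nuclei. It could be tested in 7 classes, with log2 fold changes from 2.80 to 3.87 and none past the threshold (edgeR). With CON levels near 0 in most of these, it passed the filter on low counts there through the SAP libraries, so the direction in these classes carries no support of its own. Barcodes under 1200 UMIs held it too, at 0.404, 0.448 and 6.88 CPM in CON rats and 63.8, 17.5 and 22.8 CPM in SAP rats. Outside CON replicate 2 and SAP replicate 1 these barcodes have at least 1000 UMIs, so they can be nuclei as well as free RNA. The presence of Lcn2 in a class at such levels is not shown to be that class's own.

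In SMC-like nuclei of the SAP libraries Lcn2 was above its level in barcodes under 1200 UMIs. It stood in this class at 2.89, 0 and 68.4 CPM in CON rats and 488, 452 and 162 CPM in SAP rats, from 2, 0 and 75 UMIs in CON rats and 88, 161 and 145 UMIs in SAP rats. All 3 SAP libraries were above all CON libraries (log2 fold change 3.73, standard error 0.90, adjusted p = 0.141, edgeR), as for 7.83% of genes in this class, and CON replicate 3 was the only CON library with more than 2 UMIs. Without CON replicate 3 the gene passed (log2 fold change 7.33, adjusted p = 0.00498, edgeR), as did 0.949% of genes. That fit set CON libraries of 2 and 0 UMIs against the SAP libraries. Lcn2 passed the filter on low counts there through the SAP libraries, so this pass carries no support of its own. The summed level of the 7 smooth muscle markers over all nuclei was 514, 381 and 787 CPM in CON rats and 272, 90.9 and 465 CPM in SAP rats, and its part in the Lcn2 sum was not tested. In this class the adjusted p of Lcn2 ran from 0.00498 to 0.610 over the alternatives. A Lcn2 UMI was found in 0.752%, 0% and 5.05% in CON rats and 21.1%, 23.6% and 9.84% in SAP rats of SMC-like nuclei after thinning, against 0%, 0% and 0.803% in CON rats and 4.84%, 0.770% and 1.0% in SAP rats of Enterocyte-like nuclei. Without thinning the mean shares over 6 libraries were 14.4% and 2.11%. Fibroblast-like nuclei stood at 3.56, 0 and 6.29 CPM in CON rats and 42.4, 15.2 and 31.5 CPM in SAP rats, below the SMC-like nuclei in all 3 SAP libraries. In Neutrophil-like nuclei, the cell type that gave the protein its other name, neutrophil gelatinase-associated lipocalin, it stood at 0, 0 and 0 CPM in CON rats and 812, 0 and 76.3 CPM in SAP rats. The CON value is 0 UMIs in 53 nuclei, which allows a share of nuclei with a UMI of up to 5.66%, and SAP replicate 2 had none in 10 nuclei.

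**Figure D5:**
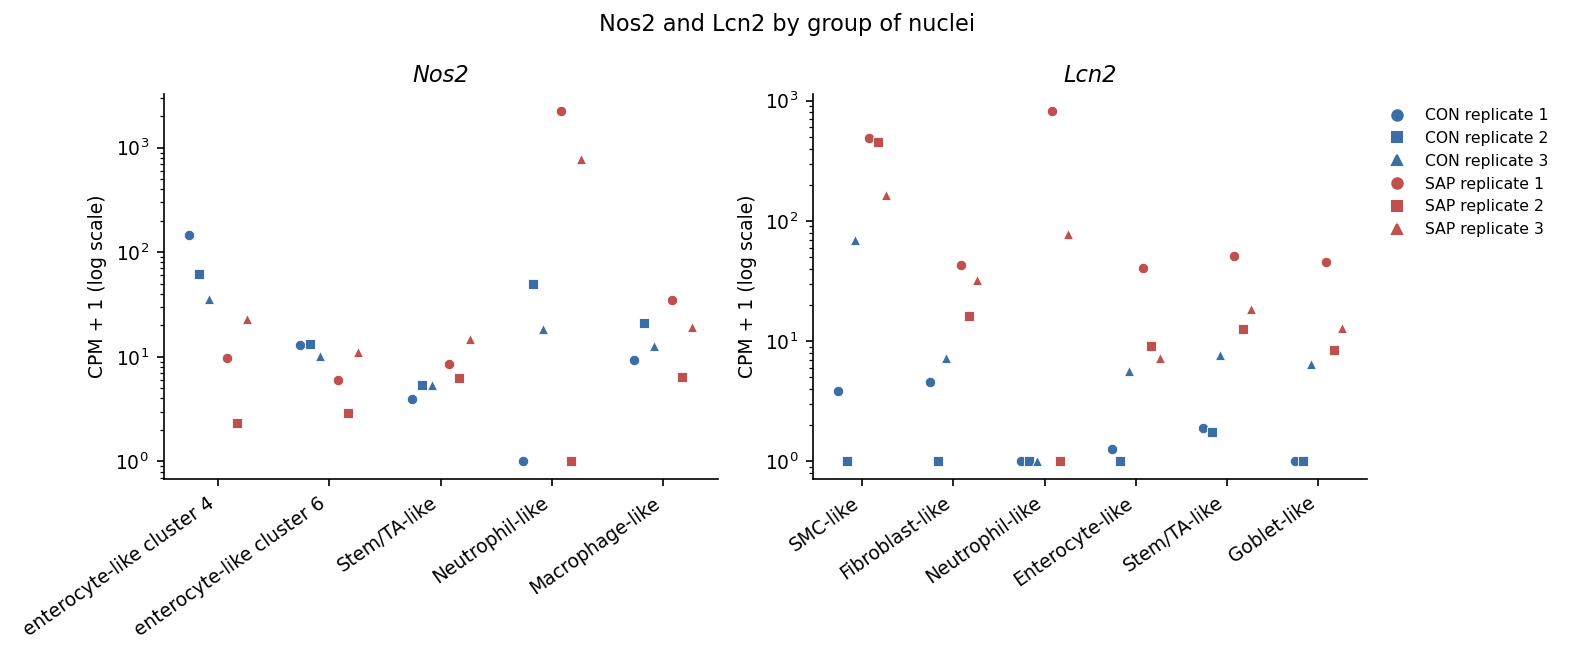
Levels of Nos2 (left) and Lcn2 (right) as CPM plus 1 on a log scale in classes of nuclei, with 1 point per library and points at 1 for libraries with no UMI. Nos2 is lower in the SAP libraries of enterocyte-like cluster 4 and high in the Neutrophil-like nuclei of SAP replicates 1 and 3, and Lcn2 is higher in every SAP library in each class drawn other than Neutrophil-like nuclei.

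Other genes of the same defence were read from 5 lists. None of the genes of any list passed over all nuclei (edgeR), as for 0% of all genes, and DESeq2 made 11 calls over all nuclei (0.686% of all genes by DESeq2) and epithelial nuclei (0.959%) together, of Duox2, Itln1, Reg1a, Reg4, Slpi and, in epithelial nuclei, Tnfaip3. Of 20 other antimicrobial effectors tested, 14 had a positive and 6 a negative log2 fold change, 4 and 3 of them at an unadjusted p under 0.05 (all genes 8.43%), with a median of 0.72 against 0.02 over all genes. Itln1, intelectin 1, a lectin that binds microbial sugars, stood at 80.1, 49.1 and 237 CPM in CON rats and 5903, 738 and 313 CPM in SAP rats (log2 fold change 4.54, standard error 1.23, adjusted p = 0.545, edgeR). Its SAP libraries lay above all CON libraries and SAP replicate 1 far above the others. Lypd8, which keeps flagellated bacteria from the epithelium, stood at 1204, 463 and 591 CPM in CON rats and 1411, 1135 and 844 CPM in SAP rats, with overlap (log2 fold change 0.52, standard error 0.55, adjusted p = 0.858, edgeR).

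Of 15 genes of the inducing cytokine receptors and their signalling, 13 had a positive log2 fold change. The median of the 15 was 0.42, against 0.02 over all genes. Only 1 gene, Il22ra1, had an unadjusted p under 0.05, where 8.43% of all genes did. Stat3, the factor that acts below the interleukin-22 receptor, stood at 183, 284 and 316 CPM in CON rats and 277, 434 and 371 CPM in SAP rats (log2 fold change 0.50, standard error 0.26, adjusted p = 0.661, edgeR), and CON replicates 2 and 3 lay above SAP replicate 1. Jak1, a kinase of the same receptors, had a log2 fold change of 0.30. Of 16 genes of toll-like receptor and NF-kB signalling, 13 had a positive log2 fold change with a median of 0.48, and 4 of the higher and 1 of the lower had an unadjusted p under 0.05. Ifngr1, a chain of the interferon gamma receptor, stood at 121, 126 and 127 CPM in CON rats and 176, 245 and 162 CPM in SAP rats, with no overlap (log2 fold change 0.65, standard error 0.32, adjusted p = 0.637, edgeR). Irf1, an interferon-induced factor, had a log2 fold change of −0.07. Of 10 secretory lineage factors 3 and of 15 partners of the 10 genes 9 had a positive log2 fold change. Their medians were −0.23 and 0.06, against 0.02 over all genes. The most abundant in these 2 lists were Tcf7l2 and Spdef, with log2 fold changes of −0.18 and −0.62, and Slc7a1 and Timp2, with −0.45 and 0.06.

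The genes whose profile over the 21 classes was most like that of each of the 10 were named by Pearson correlation of log2 mean CPM, as a description over points that share libraries and free RNA. Reg3b and Reg3g were nearest to each other (r = 0.995), followed for both by the zinc carrier Slc39a4 (r = 0.936 and 0.925). Pla2g2a and Lyz2 were nearest to defensins, Defa8 (r = 0.959) and Defa24 (r = 0.930), and Mmp7 to Pla2g2a (r = 0.941). Dmbt1 was nearest to the adhesion gene Mpzl2 (r = 0.886), Ang to Creb3l2, a factor of secretory cells (r = 0.836), Nos2 to the interferon-stimulated gene Isg15 (r = 0.904) and Lcn2 to Cyp1b1, a cytochrome P450 (r = 0.829). Reg3a, with 26 UMIs, was nearest to Adgrg4 (r = 0.796).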

How the data were processed

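Single-nucleus RNA of the ileum of 6 rats was read with the DNBelab C platform, and the authors deposited UMI counts per gene and barcode, made with dnbc4tools and not normalized. The submitters' processing notes name Seurat 4.3.0 and mRatBN7.2, and the annotation used for counting is not given in the sources used here. The 10 genes and the lists were chosen with earlier results of these data known.

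Nuclei with at least 1200 UMIs, at least 500 genes and at most 5% mitochondrial UMIs were kept. Barcodes are named by number within a library, so barcodes shared between libraries could not be counted. Counts were log-normalized, and 2000 variable genes without the 10 genes were reduced to 30 principal components, integrated with Harmony (written in numpy 2.4.6) and clustered (scanpy 1.11.5, leidenalg 0.10.2, 20 neighbours, resolution 0.8) into 19 clusters. Clusters 3 and 5 were split again at a resolution of 0.6 after the clusters were seen. Defensin genes were allowed among the variable genes of this split. Of the 2266 nuclei of cluster 5, 1655 stayed outside the Paneth-like class. A cluster took a name ending in "-like" from its class score, the mean over markers of the log2 ratio to other clusters, if this reached 0.5, was 0.8 above the next and rested on 3 or more markers. The automatic threshold of Scrublet marked 0% of nuclei as doublets, so the top 5% of scores in each library, 2048 nuclei, were marked instead, and leaving them out was an alternative.

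UMIs were summed per library and class and tested with edgeR 4.0.16 under R 4.3.3 (filterByExpr, TMM, robust quasi-likelihood fit, no covariates), adjusted over all genes tested, with DESeq2 1.42.0 as an alternative. Single values were compared with the exact permutation test over rats. Ratios over libraries in log2 use a pseudocount of 1 CPM. Shares of nuclei with a UMI were computed after thinning each nucleus to 1200 UMIs, and intervals and limits cover counting error only. On simulated counts, the edgeR script recovered 98% of 98 genes changed by 2 on the log2 scale over all nuclei at a dispersion of 0.05 and 12.6% of 95 at a dispersion of 0.3. The named genes are the 10, the 3 most alike to each in profile, and from each list those called or the 2 of the highest mean CPM, of which 1 or 2 per member are printed for the profiles.

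Libraries of the same number deviated from their group means together over all nuclei (r = 0.617, 0.236 and 0.443 over 17572 genes), and over epithelial nuclei r was 0.597, 0.0904 and 0.346. Between libraries of unlike number r ran from −0.610 to 0.0456 over all nuclei and from −0.596 to 0.149 over epithelial nuclei. The 0.149, of CON replicate 3 with SAP replicate 2, was above the 0.0904 of the number 2 libraries. Deviations from the mean of 3 libraries are tied to each other, so this check cannot establish a pairing. No source names a shared litter or day, and the pairing comes from this check alone. Replicates differed by more than sampling noise (chi-square per degree of freedom of at least 41.6). Stereo-seq data of the study were not analysed here.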

Additional observations from a re-analysis of the deposited data

Results flagged for a closer look

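Nos2 was lower in SAP in Enterocyte-like nuclei and higher in Stem/TA-like nuclei, with no overlap of the groups in either class. The log2 difference between the classes within a rat (CPM plus 1, Stem/TA-like over Enterocyte-like) was −4.18, −3.14 and −2.33 in CON rats and 0.00734, 1.33 and −0.410 in SAP rats, and its mean was 3.53 higher in SAP. The pair of classes was chosen after the values were seen, for having no overlap in opposite directions. That choice fixes the order of this difference in advance, so no p is given for it and it carries no support of its own. The Stem/TA-like share of nuclei with a Nos2 UMI, 0.697%, was no higher than the 0.892% of stromal nuclei.

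Barcodes under 1200 UMIs, which entered no comparison, held Lcn2 at 0.404, 0.448 and 6.88 CPM in CON rats and 63.8, 17.5 and 22.8 CPM in SAP rats, so the lowest SAP library, at 17.5 CPM, lay above the highest CON library. These barcodes come from the same libraries and held Lcn2 at levels like those of passing nuclei. The order thus repeats that over all nuclei and adds no support to it. The share of all genes with this order in these barcodes was not counted.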

How the results depend on the processing

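Of 252 fold changes of the 9 genes under alternatives, 233 kept their direction and side of the threshold, 18 reversed and 1 passed. None of the 9 passed over all nuclei under any of 14 alternatives. DESeq2 called 1 gene over epithelial nuclei, Lcn2 (log2 fold change 3.61), 1 in the classes, Lcn2 in Stem/TA-like nuclei, and 11 in the lists. In the classes, no filter on low counts gave 10 calls, 6 of them of Lcn2, where 0.573% of all tests passed against 0.0141% with it, and leaving out 1 library at a time gave 0 to 1, the call being Lcn2 in SMC-like nuclei without CON replicate 3. The replicate block gave 2 (0.0756% of all tests), Mmp7 in Paneth-like nuclei (log2 fold change −1.80, adjusted p = 0.0374, edgeR) and Reg3g in Endothelial-like nuclei (log2 fold change −0.86, adjusted p = 0.0197, edgeR), and changed no other call. The causes were not tested. Depth as a covariate turned Lyz2 to −0.70 over all and −0.84 over epithelial nuclei, and at most 1% mitochondrial UMIs turned Ang over epithelial nuclei to 0.0491. Without replicate 1 of both groups, an alternative added after the data were seen, Reg3b over epithelial nuclei was 0.00545.

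Leaving out 1 library at a time gave, over all nuclei, −0.84 to 0.38 for Reg3b, −1.27 to 0.20 for Reg3g, −1.64 to 3.84 for Lyz2, −3.11 to 1.24 for Mmp7, −0.38 to 0.18 for Ang and −0.39 to 1.01 for Nos2. Over epithelial nuclei it gave −0.93 to 0.45, −1.37 to 0.29, −1.81 to 3.77, −3.17 to 1.13 and −0.22 to 0.22 for the first 5. Reg3b, Reg3g and Mmp7 turned positive without CON replicate 1, and Lyz2 turned negative without SAP replicate 1. Pla2g2a (−4.26 to −0.26 over all nuclei), Dmbt1 (−1.46 to −0.69) and Lcn2 (2.42 to 6.25) kept their direction under each of the 14 alternatives, while between CON replicate 2 and SAP replicate 1 alone the log2 ratio of Pla2g2a was 0.17. Without thinning, 6 of the 10 genes kept the class with the highest share of nuclei, and Reg3a, Reg3b, Reg3g and Dmbt1 did not. With 3 rats per group an exact permutation test cannot go below p = 0.1. Over epithelial nuclei the median log2 fold change of all genes was 0.14 by DESeq2, which tested 27334 genes. It was 0.13 by edgeR with no filter on low counts, also over 27334 genes, and the main fit tested 16912. Free RNA was not removed, few Paneth-like and Neutrophil-like nuclei were read per library, and classes were rebuilt from the counts.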
